A study of Mus musculus with 24 samples.

Results

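The miRs described here are miR-214, the miR-199 family, miR-455 and miR-574, measured in the hippocampus of neonatal mice exposed to morphine and stress. Of the 1412 mouse probe sets on the miR array, 722 read mature or star miRs and 690 read hairpin precursors. The members were taken by name, as every mature or star probe set of these 4 miR names, and there were 10 of them. The set was chosen on the miR array values themselves, the differences from controls seen for some members, so their levels and the calls of the study's threshold are given as a description, and no p-value of theirs is used as support.

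All animals were labelled as male C57BL/6 mice, and bilateral hippocampi were collected on postnatal day 9. Control pups (Con) were not treated and stayed with the dam. The MS2 and MS5 pups received subcutaneous morphine at 2 or 5 mg/kg per dose from postnatal day 5, were isolated from the dam in a warmer each day, and breathed nitrogen and then oxygen to simulate apnea. Morphine, isolation and apnea went together, so their contributions to a difference from Con cannot be told apart, whereas MS5 against MS2 compared doses under the same stress. RNA was hybridised to 9 miR arrays with 3 per group and to 15 mRNA arrays with 5 per group. Both treated groups were compared with the same control arrays, so their differences from Con are not independent.

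A miR is a short RNA cut from a hairpin precursor, and the strand from either arm can be loaded into the silencing complex, where bases 2 to 8, the seed, pair with target mRNAs. miR-214 and one copy of miR-199a are made from a single long noncoding transcript, Dnm3os, which lies opposite the dynamin 3 gene and is best known from mesenchymal tissues such as bone, cartilage and smooth muscle. miR-455 lies within the collagen gene Col27a1 and is known from cartilage, and miR-574 lies within Fam114a1. In brain, mesenchymal cells are found chiefly in the meninges and along vessels. These arrays read RNA of whole tissue, in which fewer cells of a type and less RNA per cell cannot be told apart.

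The mature sequences of 9 of the 10 probe sets were found in RefSeq (GRCm38.p6), and they are shown because the arms and family members below differ in what their seeds can pair with. Capitals mark the seed, bases 2 to 8 from the 5′ end. The probe set names without an arm were taken as the 3p strand and the star names as the 5p strand, following the older miRBase naming, since the table itself names no arm for them.
miR-214 (3p): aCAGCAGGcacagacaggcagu
miR-214* (5p): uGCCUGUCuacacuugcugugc
miR-199a-3p and miR-199b (3p): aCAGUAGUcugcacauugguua
miR-199a-5p: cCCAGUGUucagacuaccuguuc
miR-455 (3p): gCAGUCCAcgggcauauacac
miR-455* (5p): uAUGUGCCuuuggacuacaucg
miR-574-3p: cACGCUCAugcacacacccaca
miR-574-5p: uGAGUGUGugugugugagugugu
The miR-199b* probe set (5p) is named only.

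The mature strands of miR-199a-3p and miR-199b were identical over all 22 bases, so the 2 probe sets read RNA that cannot be assigned to one gene. The other members whose sequence was found carried different seeds, and the seed of miR-199b* could not be compared. miR-214 shared its seed CAGCAGG with 1 other mouse miR that had a probe set, miR-761, whose levels lay between 3.78 and 4.08 on the 9 arrays. By base composition, miR-214 and miR-574-3p each held 59.1% G and C, miR-455 held 57.1% and miR-214* held 54.5%. The share was 52.2% for miR-199a-5p, 47.8% for miR-574-5p, 45.5% for miR-455* and 40.9% for miR-199a-3p and miR-199b. Sequences could be matched to only 32.8% of the 722 mature and star probe sets, so a check of base composition over the table is void.

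In GRCm38.p6, Mir214 lies at chr1:162223368-162223477 and Mir199a-2 at chr1:162217814-162217923, both on the plus strand, with 5444 bases between them. Both lie within Dnm3os and opposite Dnm3. Mir199a-1 (chr9:21496495-21496564, minus strand) lies opposite Dnm2, and Mir199b (chr2:32318460-32318569, plus strand) lies opposite Dnm1. The dynamins encoded by these 3 genes are GTPases that pinch off endocytic vesicles. Mir455 (chr4:63256851-63256932, plus strand) lies within Col27a1 on the same strand. Mir574 (chr5:64970318-64970395, plus strand) lies within Fam114a1 on the same strand and also overlaps Tlr6 on the opposite strand.

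Some arrays stood apart from their labels or groups. On the mRNA array labelled MS5 replicate 9, Xist, the RNA that coats the inactive X chromosome, was at 11.34 (log2) against 5.89 to 6.08 on the other 14 arrays, and the Y-linked Ddx3y was at 6.24 against 11.01 to 11.45, which goes against the male label. On the mRNA array of MS2 replicate 4 the summed level of 10 hippocampal neuron markers was 14.83 (log2), against 16.64 to 16.95 on the other MS2 arrays. The summed level of 15 choroid plexus markers was low on the mRNA arrays of MS5 replicate 14 (14.27) and replicate 9 (16.32) and stood at 18.32 for replicate 12. On the miR arrays, however, miR-204, a miR abundant in choroid plexus, was low for MS5 replicates 12 (5.23) and 14 (5.37) and stood at 7.31 for replicate 9. Although 8 of the 9 miR arrays share group and number with an mRNA array, the numbers 9 and 12 therefore did not track each other between the assays, and values of the 2 assays were not paired by number. The medians of the miR arrays lay between 4.17 and 4.21, near the bottom of the table, where most hairpin probe sets lie. Among the 260 probe sets with a mean level above 6, where miR-214, miR-455 and miR-574 lie, the median difference from Con was -0.10 in MS2 and -0.02 in MS5.

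The probe sets miR-214, miR-455, miR-574-3p and miR-574-5p had lower mean levels in both treated groups than in Con, whereas no miR-199 probe set did. The mean of miR-214*, near the bottom of the table, was also lower in both, by only -0.09 (log2) in MS2 and -0.04 in MS5. In MS2, 3 of the 10 members were called at over 1.5-fold with an unadjusted p under 0.05 (miR-214, miR-574-3p and miR-574-5p, all lower). In that comparison 2.97% of all 1412 probe sets and 5.68% of the 722 mature and star probe sets were called, and 1.56% of all probe sets were called lower. In MS5, 3 members were again called and all were lower (miR-214, miR-455 and miR-574-3p), beside 0.992% of all probe sets and 1.94% of mature and star probe sets, with 0.779% of all probe sets called lower. Of these, miR-214 (-0.51) and miR-455 (-0.58) were not called without MS5 replicate 14, nor was miR-214 (-0.57) without Con replicate 18. Between MS5 and MS2, 0 members and 0.425% of all probe sets were called. Since the members were chosen with these comparisons in view, nothing is read from the counts against these shares. The median difference over the 10 members was 0.01 (log2) in MS2 and -0.05 in MS5, beside -0.01 and 0.00 over all probe sets.

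**Figure D1:**
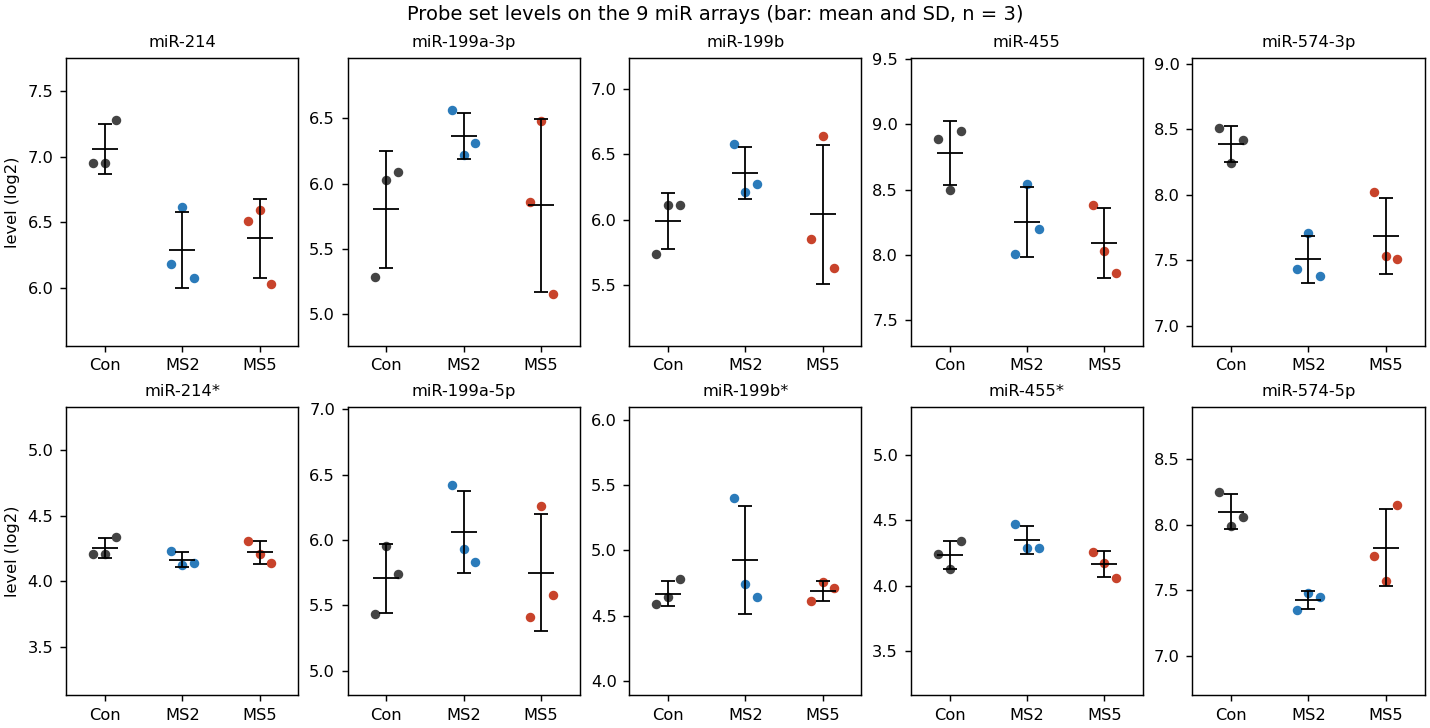
Levels (log2) of the 10 probe sets on the 9 miR arrays, one panel per probe set with the 3p strands above and the 5p strands below. Points are arrays, bars are the mean and SD of 3 arrays, and each panel spans the same number of log2 units. All treated arrays lie below all Con arrays for miR-214 and miR-574-3p, while the miR-199 probe sets overlap or lie higher in MS2.

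miR-214, which represses targets in bone, muscle and vessels, had levels of 6.95, 6.95 and 7.28 (log2) in Con. In MS2 it was at 6.18, 6.62 and 6.07, and in MS5 at 6.59, 6.03 and 6.51. Thus each of the 6 treated arrays lay below each control array. The difference from Con was -0.78 (log2, SE 0.19, n = 3) in MS2, which is 1.71-fold lower, and -0.68 in MS5, which is 1.61-fold lower. The doses differed from each other by 0.09 (SE 0.19) and their arrays overlapped. All arrays of a treated group lay below Con for 8.57% of all probe sets in MS2 and for 5.74% in MS5. The study also measured miR-214 by RT-PCR. It did not list miR-214 among the miRs that RT-PCR bore out, whereas miR-455 and miR-574-3p were listed.

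The opposite strand of the same hairpin, miR-214*, stayed between 4.12 and 4.34 on all arrays, within the range of the hairpin probe sets, whose 95th percentile lay between 4.73 and 4.87. Its difference from Con was -0.09 (SE 0.08) in MS2 and -0.04 in MS5. The difference of miR-214 minus that of miR-214* was -0.69 (SE 0.20) in MS2 and -0.65 (SE 0.16) in MS5. At such levels the star strand cannot be told from the bottom of the table, so the comparison says little about the strands.

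The miR-199a strands, which come in part from the same transcript as miR-214, did not follow it. miR-199a-3p was at 5.29, 6.03 and 6.09 in Con, at 6.56, 6.22 and 6.31 in MS2, and at 6.48, 5.16 and 5.86 in MS5. All MS2 arrays were above all Con arrays, as they were for 7.22% of all probe sets, and the MS5 arrays spread across the range of both other groups. The difference from Con was 0.56 (SE 0.32) in MS2 and 0.03 (SE 0.32) in MS5. Without Con replicate 16, the lowest control, the MS2 difference was 0.30.

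miR-199a-5p, the strand from the other arm, differed from Con by 0.35 (SE 0.24) in MS2 and 0.05 in MS5, with overlapping arrays, and the MS2 value was 0.17 without MS2 replicate 3 and 0.21 without Con replicate 16. miR-199b, whose 3p strand is the one shared with miR-199a, differed by 0.37 (SE 0.24) and 0.05, and its 3 MS2 arrays at 6.58, 6.21 and 6.27 were again above the Con arrays at 5.74, 6.11 and 6.11, although the difference was 0.24 without Con replicate 16. miR-199b* differed by 0.26 (SE 0.17) in MS2 and 0.03 in MS5. On the Con and MS5 arrays it lay within the hairpin range, whose 95th percentile lay between 4.73 and 4.87, so a fall could hardly show. Its MS2 mean came largely from replicate 3, at 5.40, whereas the other MS2 arrays were at 4.74 and 4.64 and the Con arrays at 4.59 to 4.78. The same MS2 array held the highest MS2 level of every miR-199 probe set.

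Set side by side as differences, the value for miR-214 minus that for miR-199a-3p was -1.34 (log2, SE 0.32) in MS2 and -0.71 (SE 0.31) in MS5. The per-array difference of the 2 probe sets lay below that of all Con arrays on every treated array. Against miR-199a-5p the values were -1.13 (SE 0.32) and -0.73 (SE 0.30), with overlap in MS5. miR-199a has a second gene, and the array does not tell which gene its strands came from.

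**Figure D2:**
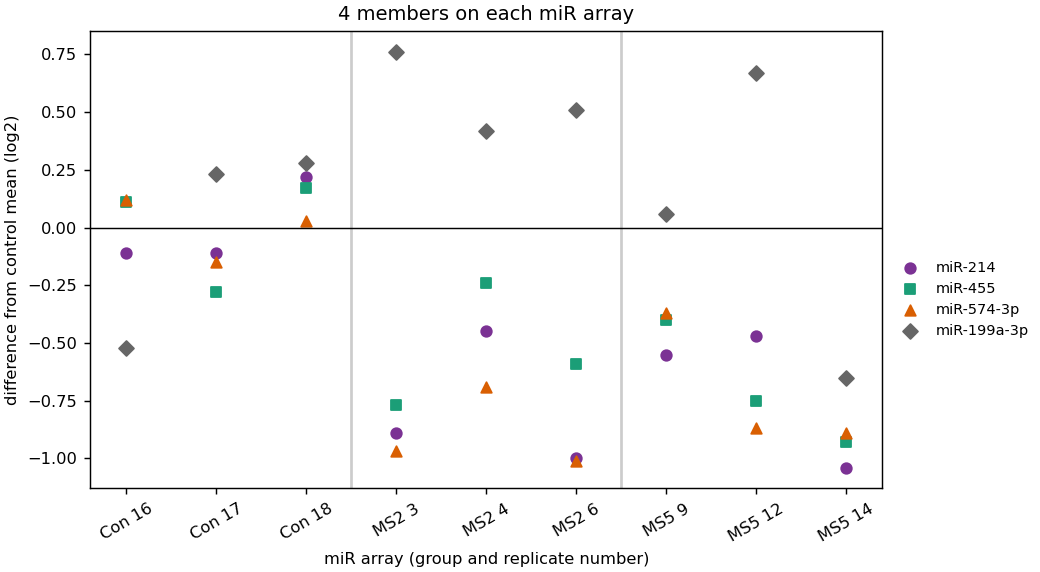
Difference of 4 probe sets from their own control mean (log2) on each of the 9 miR arrays, labelled by group and replicate number. miR-214, miR-455 and miR-574-3p lie below 0 on all 6 treated arrays, while miR-199a-3p lies above 0 on all 3 MS2 arrays and from -0.65 to 0.67 in MS5.

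miR-455, a miR of chondrocytes, was at 8.89, 8.50 and 8.95 in Con, at 8.01, 8.54 and 8.20 in MS2, and at 8.03, 7.86 and 8.38 in MS5. All MS5 arrays lay below all Con arrays, and in MS2 replicate 4, at 8.54, overlapped the lowest control. The difference from Con was -0.53 (SE 0.18, 1.45-fold lower) in MS2 and -0.69 (SE 0.18, 1.62-fold lower) in MS5. The doses differed by -0.16 (SE 0.18).

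miR-455*, the 5p strand, was near the hairpin range, between 4.06 and 4.47 on all arrays. It differed from Con by 0.12 (SE 0.09) in MS2 and -0.07 in MS5. Its MS5 arrays were all below its MS2 arrays, by -0.19 (SE 0.09), as 2.83% of all probe sets were. The files do not settle which arm a probe set reads. In its array and RT-PCR results the study named as lower the arm taken here for the probe set miR-455. In MS5 that probe set differed from Con by -0.69, against -0.07 for miR-455*. The study's discussion and its list of target pairs named the 5p arm, which by the naming used here is miR-455*. That list gave, however, the difference of the probe set miR-455 and not that of miR-455*. It paired the miR with 3 mRNAs: the adaptor subunit gene Ap1s2, the PDZ domain gene Pdzd2 and the lubricin gene Prg4. These were predicted targets that had also differed in MS5 on these mRNA arrays, so their differences here repeat that choice. On the mRNA arrays the MS5 difference of Ap1s2 was 0.13 (SE 0.11) with one probeset and -0.76 (SE 0.20) with the other. Pdzd2 differed by 0.60 (SE 0.28) and Prg4 by 0.80 (SE 0.28) with the probesets used here. The other two Pdzd2 probesets gave 0.10 and 0.06, and the other Prg4 probeset was well above background on 1 of 15 arrays.

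Both strands of miR-574 lay above the hairpin range on all arrays, as did both strands of miR-199a. miR-574-3p was at 8.51, 8.24 and 8.42 in Con, at 7.43, 7.71 and 7.38 in MS2, and at 7.53, 7.51 and 8.02 in MS5. No treated array reached the lowest control, and replicate 9 of MS5 came nearest. The difference from Con was -0.89 (SE 0.15, 1.85-fold lower) in MS2 and -0.71 (SE 0.15, 1.63-fold lower) in MS5.

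miR-574-5p was at 8.25, 7.99 and 8.06 in Con, at 7.35, 7.48 and 7.45 in MS2, and at 7.57, 8.15 and 7.76 in MS5. Its MS2 arrays were all below Con, by -0.67 (SE 0.14, 1.60-fold lower). Its MS5 arrays reached into the control range, with a difference of -0.27 (SE 0.14), which was -0.14 without replicate 12 and -0.44 without replicate 14. All MS5 arrays were above all MS2 arrays, by 0.40 (SE 0.14), as 5.59% of all probe sets were, and by 0.24 without MS5 replicate 14. The difference of the 3p strand minus that of the 5p strand was -0.21 (SE 0.09) in MS2 and -0.43 (SE 0.27) in MS5, where the per-array differences overlapped with Con.

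**Figure D3:**
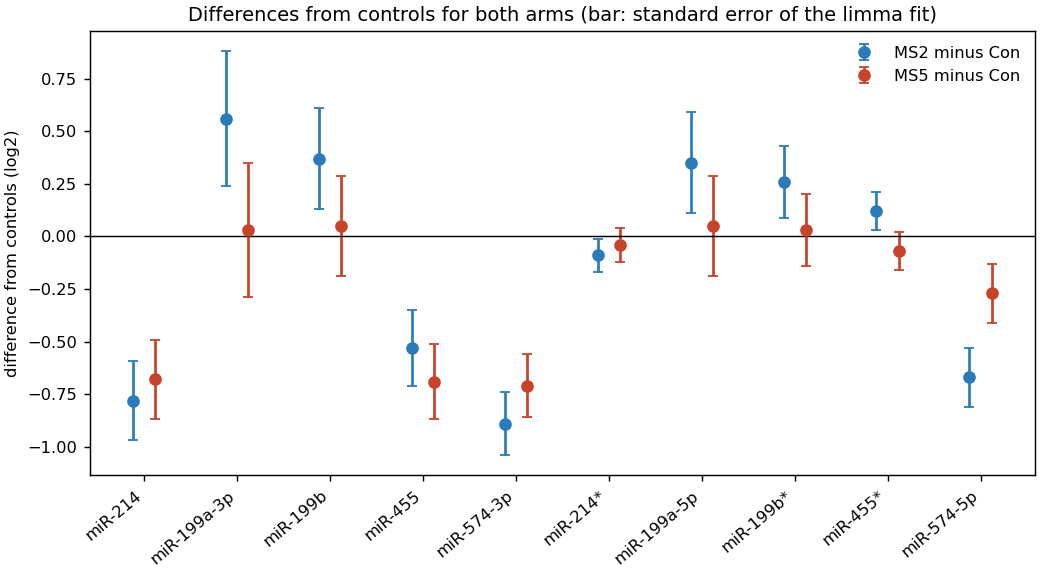
Difference from Con (log2) for each probe set, with MS2 in blue and MS5 in red, 3p strands on the left and 5p strands on the right. Bars are standard errors of the fit over the 9 arrays, and both groups are compared with the same 3 Con arrays. miR-574-5p is at -0.67 in MS2 and -0.27 in MS5.

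The 8 hairpin probe sets of these precursors lay between 3.82 and 4.83, and 0 were called in any comparison. The hairpin of miR-214 differed from Con by -0.06 (SE 0.20) in MS2 and -0.08 in MS5. The hairpin of miR-455 differed by -0.25 (SE 0.17) and -0.22. These levels are near the bottom of the table, so the precursors could not be followed here.

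Across the 9 arrays, miR-214 had a Pearson r of 0.87 with miR-455 and 0.89 with miR-574-3p, and the last 2 had 0.89 with each other. The arrays share their groups, and over deviations from the group means the values were 0.71, 0.54 and 0.88. miR-199a-3p and miR-199b, with the same mature sequence, had an r of 0.95, or 0.93 within groups. miR-199a-3p and miR-214 had -0.05, or 0.55 within groups. The 2 strands of miR-574 had 0.73, which was 0.04 within groups, and miR-199a-3p had -0.85 with miR-574-5p, or -0.97 within groups.

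Among 473 other mature or star probe sets above the median level, the patterns most like miR-214 were those of miR-378 (r = 0.89), miR-17 (0.85) and miR-191 (0.83). The closest to miR-455 were miR-30b* (0.87), miR-378 (0.86) and miR-1306 (0.86). The closest to miR-574-3p were miR-99b* (0.96), miR-93 (0.95) and miR-24 (0.95), which differed from Con in MS2 by -0.59, -0.39 and -0.36. For miR-199a-3p they were miR-2183 (0.83), miR-23a (0.80) and miR-106a (0.78). Within groups these 12 values of r ran from 0.57 to 0.91.

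Of 17 probe sets of other miRs of mesenchymal and mural cells, 0 were called in either direction in MS2 or MS5, with median differences of 0.06 and -0.04 (log2). However, 11 of the 17 had mean levels no higher than 4.87, the top of the hairpin range, and could hardly differ. Of the other 6, a split made after the values were seen, 5 lay below 0 in MS5, with a median of -0.14, and in MS2 their median was 0.03. miR-145, a miR of smooth muscle, differed by -0.17 in MS2 and -0.41 in MS5, and its cluster partner miR-143 by 0.13 and -0.25. miR-126-3p, the vessel miR, differed by 0.50 and 0.15. Of 14 neuronal probe sets, miR-218-2* alone was called lower in MS2 and 0 in MS5. In MS2, 1.56% of all probe sets and 2.91% of mature and star probe sets were called lower. Of 10 probe sets of choroid plexus and ciliated cells, 0 were called in MS2 and 5 were called lower in MS5, with a median of -0.95. The 5 were miR-448 (-1.59), miR-34c (-1.35), miR-204 (-1.22), miR-34c* (-1.16) and miR-34b-5p (-0.96). In MS5, 0.779% of all probe sets and 1.52% of mature and star probe sets were called lower. All of the 5 except miR-34b-5p were among the miRs that the study had named as altered on these arrays, so the count is a description only.

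In MS5 some members, though not all, were closest to Con on the array where the choroid plexus miRs were at control level. The median difference of the 10 choroid plexus and cilia probe sets from the control mean was -1.55 and -1.40 on replicates 12 and 14 and 0.10 on replicate 9. miR-455 and miR-574-3p were likewise closest to Con on replicate 9, at -0.40 and -0.37. However, miR-214 was closest on replicate 12, at -0.47 against -0.55 on replicate 9, and miR-574-5p on replicate 14, at 0.05. In MS2 the median of the choroid plexus and cilia probe sets was at 0.18, -0.35 and 0.02 on replicates 3, 4 and 6, where miR-574-3p was at -0.97, -0.69 and -1.01. Without MS5 replicate 9 the MS5 differences of miR-214, miR-455 and miR-574-3p were -0.75, -0.84 and -0.88, without replicate 12 they were -0.79, -0.67 and -0.63, and without replicate 14 they were -0.51, -0.58 and -0.62. The part of the choroid plexus in the MS5 values was not tested.

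The host transcripts were taken from the position of the miR genes and measured on the mRNA arrays. The rule for the members used no mRNA value, although earlier results of the mRNA arrays were also known. Of 6 host or opposite-strand transcripts, 0 passed the 1.5-fold rule in any comparison. That rule called 0.0233% of 55681 probesets in MS2, 0.228% in MS5 and 0.129% between the doses. No probeset passed an adjusted p of 0.05 in limma, where 2324, 2176 and 2211 probesets had an unadjusted p under 0.05. In MS5, 3 of the 6 transcripts had an unadjusted p under 0.05, as 3.91% of all probesets did. The exact permutation p-values below are for single genes and are not adjusted.

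Col27a1, the host of miR-455, encodes a fibrillar collagen chain of cartilage. It was at 7.87, 7.91, 7.93, 8.12 and 8.13 (log2) on the Con arrays. In MS2 it was at 7.70, 7.78, 7.89, 7.93 and 7.96, and in MS5 at 7.39, 7.61, 7.70, 7.82 and 7.83. All MS5 arrays lay below all Con arrays, while MS2 overlapped both groups. The MS5 difference was -0.32 (SE 0.09, n = 5, two-sided exact permutation p = 0.00794, the smallest that 5 against 5 arrays allow), and the adjusted p of limma over all probesets was 1.00. With the slide as a block it was -0.29, and within the 2 slides it was -0.21 and -0.35. The MS2 difference was -0.14 (exact permutation p = 0.135). All MS5 arrays were below Con for 0.526% of all probesets.

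Fam114a1, the host of miR-574, had a mean of 9.17 ± 0.12 (SD, n = 5) in Con, 9.10 ± 0.09 in MS2 and 8.93 ± 0.15 in MS5. The MS5 arrays overlapped Con. The MS5 difference was -0.24 (SE 0.08, exact permutation p = 0.0317, adjusted p in limma 1.00), or -0.22 with the slide as a block and -0.16 and -0.29 within slides. The MS2 difference was -0.07 (exact permutation p = 0.238), whereas both strands of miR-574 were lower in MS2.

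Dnm3os, which carries miR-214 and miR-199a-2, was close to background. One of its 3 probesets was well above background on 12 of 15 arrays and the other two on none. The first was at 6.12 ± 0.08 (SD, n = 5) in Con, 6.21 ± 0.07 in MS2 and 6.23 ± 0.09 in MS5. Its differences of 0.09 (SE 0.05, exact permutation p = 0.103) and 0.11 (exact permutation p = 0.0714) did not pass the test, with an adjusted p in limma of 0.970 and 1.00. With the processed signal scaled to the 75th percentile, the MS5 difference was 0.68 and passed the 1.5-fold rule, so its size is uncertain. miR-214 itself was lower in both groups.

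Among the dynamin genes opposite these miRs, Dnm1 and Dnm2 differed from Con by at most 0.11 (log2) with any probeset and either dose. Dnm3, opposite Mir214, differed by 0.20 in MS5 (SE 0.18, exact permutation p = 0.0397, adjusted p in limma 1.00), with overlapping arrays. In MS2 its mean rested on replicate 4, at 12.39 against 11.14 to 11.39 on the other MS2 arrays, the same array that was low in neuron markers.

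**Figure D4:**
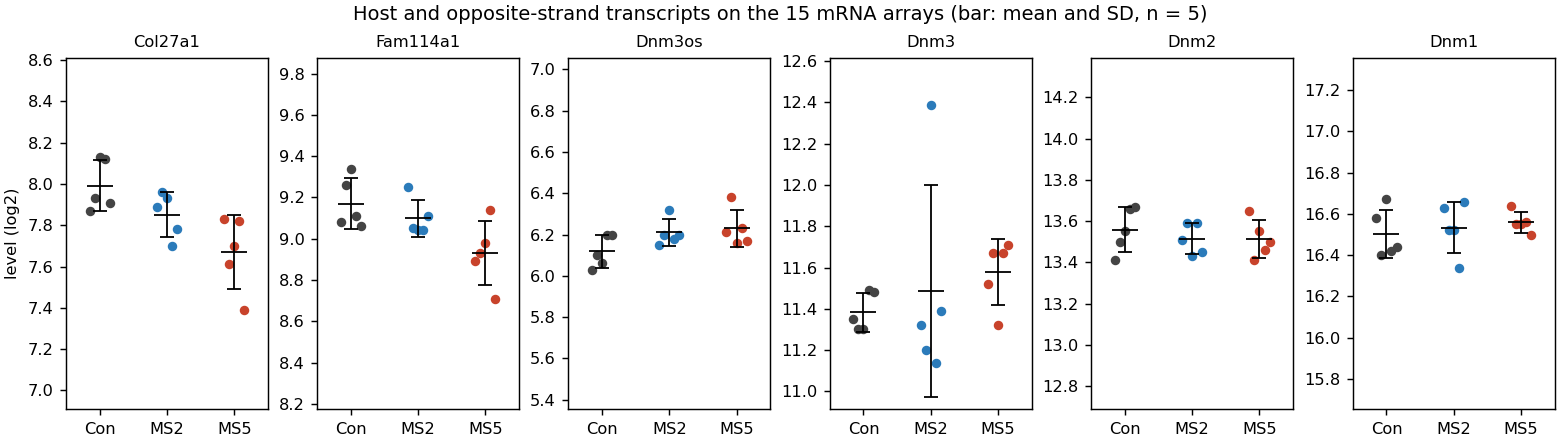
Levels (log2) of the host transcripts Col27a1, Fam114a1 and Dnm3os and of the dynamin genes opposite the miRs on the 15 mRNA arrays. Points are arrays, bars are the mean and SD of 5 arrays, and each panel spans the same number of log2 units. The MS5 arrays of Col27a1 run from 7.39 to 7.83, below the lowest Con array at 7.87.

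Markers of the cells in which these miRs are known gave no call. Of 18 genes of meningeal and perivascular fibroblasts, 0 passed the 1.5-fold rule. In MS5, 15 of the 18 lay below 0 with a median of -0.15, beside -0.001 over all genes, and in MS2 the median was 0.04. The proteoglycan gene Dcn differed by -0.50 in MS5 (SE 0.44, exact permutation p = 0.317). The summed level of the list ran from 15.29 to 16.48 in Con, from 15.91 to 16.50 in MS2 and from 15.38 to 16.39 in MS5. The lowest Con value was that of replicate 19, and without that array the MS5 median was -0.37.

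Of 12 mural cell genes 0 were called, with a median of 0.02 in MS2 and -0.03 in MS5, where Rgs5 differed by 0.05 and Cspg4 by 0.00. Pdgfrb, the receptor that pericytes need, was at 10.88 ± 0.03 (SD, n = 5) in Con and 10.66 ± 0.13 in MS5, a difference of -0.21 (SE 0.08, exact permutation p = 0.00794, adjusted p in limma 1.00), and it differed by -0.19 in MS2 (exact permutation p = 0.0238). Acta2, the actin of smooth muscle, differed by -0.35 in MS5 (SE 0.34). Of 10 endothelial genes 0 were called and 6 lay below 0 in MS5, with a median of -0.05. The largest differences were -0.24 for the cadherin gene Cdh5 (SE 0.09, exact permutation p = 0.0317) and 0.18 for Ly6c1. Of 15 choroid plexus genes 14 were called lower in MS5, with a median of -1.26, as 0.183% of all probesets were, and 0 were called in MS2. The study had named many genes of this list, such as Aqp1, Cldn2, Folr1 and Kl, as lower in MS5 on these arrays. The count is therefore a description only. The 5 largest of those called were the potassium channel subunit gene Kcne2 (-1.72), Calml4 (-1.49), the water channel gene Aqp1 (-1.48), Clic6 (-1.32) and the folate receptor gene Folr1 (-1.29). Ttr, the carrier of thyroid hormone made by this epithelium, differed by -1.54 (SE 0.72) and was not called. That count was 6 without MS5 replicate 9, 8 without MS5 replicate 14 and 9 without Con replicate 16. On the same arrays the MS5 difference of Col27a1 was -0.31 without replicate 9 and -0.25 without replicate 14.

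Of 12 transcription factors of mesenchyme 0 were called in any comparison. Below 0 lay 11 of the 12 in MS2 and 10 in MS5. Their medians were -0.04 and -0.14, beside -0.005 and -0.001 over all genes. Twist1, which is known to drive Dnm3os, differed by -0.04 in MS2 and -0.05 in MS5 (SE 0.09). Zeb2 differed by -0.50 in MS2 (SE 0.29, exact permutation p = 0.175), where its SD was 0.84, against 0.14 in Con. The summed level of the list was lowest on the MS2 array of replicate 4, at 13.80, the array that was low in neuron markers. Prrx2 differed by -0.41 (SE 0.13, exact permutation p = 0.0476) and Sox9, a factor of cartilage and glia, by -0.21 (SE 0.08, exact permutation p = 0.0317) in MS5, both with an adjusted p in limma of 1.00. Of 14 genes of miR processing and silencing 0 were called. The nucleases Drosha and Dicer1, which cut the precursors, differed by 0.05 and 0.07 in MS5 (SE 0.05 and 0.08), and the slicer Ago2 by 0.13.

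Of 9 genes reported elsewhere as targets of miR-214 or miR-199a, 0 were called in any comparison. The histone methyltransferase gene Ezh2 differed by -0.21 in MS2 and -0.12 in MS5 (SE 0.11), and Hif1a, the oxygen-responsive factor, by -0.20 and -0.08 (SE 0.11). The median of the 9 was -0.09 in MS2 and -0.08 in MS5, beside -0.005 and -0.001 over all genes.

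**Figure D5:**
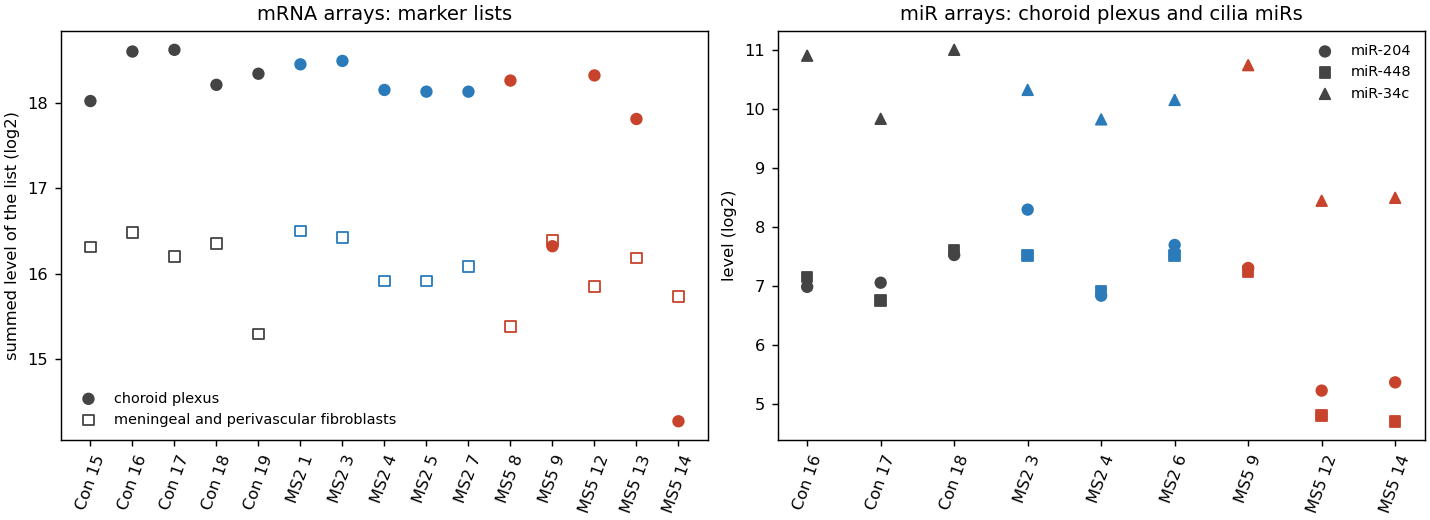
Left, summed level (log2) of the choroid plexus list (filled circles) and the fibroblast list (open squares) on the 15 mRNA arrays. Right, levels (log2) of miR-204, miR-448 and miR-34c on the 9 miR arrays. The MS5 replicates low in choroid plexus genes are 9 and 14 on the mRNA arrays, and those low in the 3 miRs are 12 and 14 on the miR arrays.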

How the data were processed

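Hippocampal miR was read on Affymetrix miRNA 2.0 arrays. The authors deposited a table of log2 values per probe set, normalized by RMA (a version is not given in the sources used here), and these values were used as deposited. Scan dates of the miR arrays are not given in the sources used here. The mRNA was read on Agilent one-colour arrays on 2 slides that each held all groups. The deposited scanner files, from Feature Extraction 10.7.1.1, hold the spot intensity, the local background intensity, the processed signal intensity, flags for spots well above background, a saturation flag, and coordinates in mm9. Of 62976 spots, 3671 controls were dropped after normexp correction (offset 50) and quantile normalization, and spots of one probe were averaged on the log2 scale, which gave 55681 probesets. The authors' own log2 table of these arrays served as an alternative. The p-values measure the spread between animals of a group.

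Both assays were fitted with limma 3.58.1 in R 4.3.3, with 3 groups in 1 fit and Benjamini-Hochberg adjustment over the whole table. A feature was called at over 1.5-fold with an unadjusted p under 0.05, after the study's threshold. Host transcripts also had a two-sided exact permutation test. The same test was run on the list genes, although it was planned for host transcripts only, so the p-values of list genes are descriptive. One probeset per gene was taken, A_51 or A_52 names first and then the highest mean level. A summed list level is the log2 of the summed linear values. The fit was tested on simulated data. Named were all members, their hairpins, host transcripts, the 3 probe sets most like each of 4 members, and of each list every called gene up to 5 and the largest change. Others (Twist1, Drosha, Dicer1, Hif1a, miR-143, miR-145, miR-761, Sox9, Pdgfrb, Rgs5, Cspg4, Ly6c1, Ttr and the genes paired with miR-455) were named after their values were seen. The members and all lists were chosen with earlier results of these data known. The alternatives were other background settings, scaling, filters, array weights, the slide as a block, the deposited log2 table, fits of 2 groups, and each array left out. No p-values or fold changes of the authors were used.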

Additional observations from a re-analysis of the deposited data

Results flagged for a closer look

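In 54 groups of 5 mRNA arrays checked for a single array far from the rest, 3 had one, and chance gives about 1 in 20. The level of Dnm3, the gene opposite Mir214, was 12.39 (log2) on the MS2 array of replicate 4, against 11.14 to 11.39 on the other MS2 arrays. The summed level of the hippocampal neuron markers was 14.83 on the same array, against 16.64 to 16.95. The summed level of the meningeal and perivascular fibroblast markers was 15.29 on the Con array of replicate 19, against 16.20 to 16.48 on the other Con arrays. The miR arrays, with 3 per group, were too few for this check.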

How the results depend on the processing

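No paired analysis was possible because the labels do not give the litter or the run of an animal. In the study, treated pups shared a home cage with untreated littermates, and the experiment was repeated. Animals may therefore be linked by litter or run, and the tests treat them as independent. No difference of a member reversed under any alternative run other than leaving out an array. The count of members called in MS5 ran from 1 to 3 when single arrays were left out, and it was 1 (miR-574-3p) without MS5 replicate 14 and 2 (miR-455 and miR-574-3p) without Con replicate 18. Between the doses the count ran from 0 to 2, with 2 (miR-199a-3p and miR-199b, lower in MS5) without MS5 replicate 12. In MS2 it ran from 3 to 4. For miR-199a-3p the MS5 difference ran from -0.29 to 0.37 (log2), so it has no direction. The count of host transcripts called in MS5 was 1 (Dnm3os, 0.68) with the processed signal scaled to the 75th percentile. The other 53 counts over host transcripts and 34 counts over members were within 1.5 times. The neuron marker median in MS2 was -0.40, and -0.01 without replicate 4. With 3 arrays a group the miR differences rest on few animals, and levels near those of the hairpin probe sets are at the limit of the array.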
